A study of Arabidopsis thaliana with 6 samples.

Results

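Aliphatic glucosinolates are sulfur-rich defence compounds that Arabidopsis makes from methionine. The methionine side chain is first lengthened in the chloroplast. The elongated amino acid is then turned into the core glucosinolate by cytochromes P450, transfer of sulfur and glucose and a final sulfation, and the side chain is modified afterwards. Tissue damage brings the stored compounds together with myrosinases, which release toxic products. The 10 genes described here were taken by their gene identifiers and cover 3 roles. MYB28, MYB29 and MYB76 encode the transcription factors of the branch, BCAT4, MAM1 and MAM3 encode enzymes of chain elongation, and CYP79F1, CYP79F2, CYP83A1 and SOT18 encode enzymes of the core structure. All 10 were found among the 25402 genes with a value in at least 1 of the 3 deposited tables.

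RNA of rosette leaves of the Columbia ecotype was sequenced in 6 libraries. Wild type (WT) was compared with ibm1-3, a mutant allele of IBM1, which encodes a histone demethylase that keeps a heterochromatic mark out of active genes. A single pair, with 1 library of each genotype, came from plants of 40 days kept in low light. A further 2 pairs came from younger plants, 30 days old, that had been in high light for 48 hours, so age and light treatment cannot be told apart. Nothing in the labels says that the numbered libraries came from separate plants, and p-values below therefore measure only the spread between libraries, which may be technical. In whole leaf RNA, fewer cells of a type and less RNA per cell cannot be told apart.

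High light pair 1 held 12121246 estimated fragments in WT and 12502408 in ibm1-3, the low light pair held 15425082 and 13099267 reads, and the depth of high light pair 2 is unknown. Low light reads, here and below, are inferred from a deposited signal that behaves as reads times a constant. IBM1 itself stood at 13.81 and 8.34 FPKM (fragments scaled by gene length and library depth) in the WT high light libraries and at 17.6 and 7.46 FPKM in those labelled ibm1-3. By limma the log2 fold change of IBM1 was 0.09 ± 0.13 (SE, n = 2 per genotype, adjusted p = 0.528), and size factors turned it to -0.20. In low light IBM1 had 643 WT and 399 ibm1-3 reads, a log2 ratio of -0.71 in a single pair. Each direction below is therefore that of libraries labelled ibm1-3 against those labelled WT. In high light 49.2% of all genes tested were called higher in ibm1-3 and 26% lower (limma adjusted p under 0.05). By the same threshold 4 of 4 mesophyll markers were lower in ibm1-3. Their summed level was 17694 and 28266 FPKM in WT against 3270 and 6042 FPKM. Of 7 phloem and vascular markers 4 were higher, near the share of all genes, and 3 did not pass (summed 327 and 496 against 382 and 589 FPKM). Of 4 measured epidermis and trichome markers 3 were higher and 1 lower (122 and 220 against 216 and 417 FPKM), of 5 guard cell and myrosin cell markers 1 was higher and 4 lower (137 and 160 against 119 and 144 FPKM), and of 3 measured root markers 2 were higher and 1 did not pass (9.99 and 16.2 against 34.9 and 55.2 FPKM). The summed level of 4 floral markers stayed between 0.73 and 1.77 FPKM. Morning clock genes were lower in the same libraries, CCA1 with a log2 fold change of -4.71 and LHY with -4.12, and the evening genes TOC1 and GI were higher by 1.71 and 2.19. In the low light pair 2 of 4 mesophyll markers were at least 2-fold lower in ibm1-3, CAB3 with a log2 ratio of -1.98 and RBCS1A with -1.30, and the list summed to 8047 RPKM in WT and 5786 RPKM in ibm1-3 (RPKM, reads scaled by gene length and library depth). Of 3 epidermis markers with a ratio 2 were 2-fold lower (FDH -1.26, ATML1 -1.11), and their list went from 250 to 161 RPKM, opposite to high light. Of 6 phloem and vascular markers 1 was 2-fold lower (XCP2 -2.75, summed 365 and 413 RPKM). Of 5 guard cell and myrosin cell markers 1 was higher (KAT1 1.13) and 1 lower (TGG2 -5.21), with sums of 97.6 and 59.1 RPKM. The fall of that sum came with TGG2, which went from 42.4 to 1.33 RPKM. Of 2 root markers 1 was higher (PHT1.4 1.33, summed 7.80 and 12.4 RPKM). Of all genes with a ratio 5.68% were at least 2-fold higher and 9.74% at least 2-fold lower. TOC1 was at -1.38 in low light, and CCA1, LHY and GI lay within 2-fold. The part of cell types and of clock phase in the results below was not tested.

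There are 3 pairs of genes that lie side by side on the same strand with no protein-coding gene between them, and their sequences are close. CYP79F2 (AT1G16400, chromosome 1, 5605044 to 5607498) ends 1308 bases before CYP79F1 (AT1G16410, chromosome 1, 5608807 to 5610769), in TAIR10 coordinates as deposited. Their coding sequences were 91.9% identical, with a longest identical run of 100 bases, and pair 1 gave them fractional fragments (191.42 and 252.11 for CYP79F2 in WT and ibm1-3), so the split of fragments between them is uncertain. MAM1 (AT5G23010, chromosome 5, 7703092 to 7706896) and MAM3 (AT5G23020, chromosome 5, 7718118 to 7721866) are 11221 bases apart and 83.8% identical in coding sequence. MYB29 (AT5G07690, chromosome 5, 2446669 to 2448584) and MYB76 (AT5G07700, chromosome 5, 2450084 to 2451807) are 1499 bases apart and 78.1% identical. Of the other members, MYB28 (AT5G61420) is on chromosome 5 at 24689144 to 24691095, BCAT4 (AT3G19710) on chromosome 3 at 6846969 to 6849582, CYP83A1 (AT4G13770) on chromosome 4 at 7990429 to 7992429 and SOT18 (AT1G74090) on chromosome 1 at 27862814 to 27864193.

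The 250 bases upstream of 3 enzyme genes are shown. The neighbours CYP79F2 and CYP79F1, 91.9% identical in coding sequence, gave different genotype ratios, though the split of fragments between them is uncertain. Further, 2 of the 3 genes carry a motif of a regulator measured here. Whether upstream sequence bears on the ratios was not tested. Sequences are from RefSeq (TAIR10.1) on the strand of the gene, 5′ to 3′, and capitals mark motif matches. The gene start of CYP79F1 in RefSeq differs from that deposited.
CYP79F2 (chr1:5604794-5605043, forward strand): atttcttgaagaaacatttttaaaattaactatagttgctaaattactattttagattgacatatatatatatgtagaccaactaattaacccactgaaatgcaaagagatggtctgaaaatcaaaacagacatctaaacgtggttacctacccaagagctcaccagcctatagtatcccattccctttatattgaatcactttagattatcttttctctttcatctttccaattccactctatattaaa
CYP79F1 (chr1:5608432-5608681, forward strand): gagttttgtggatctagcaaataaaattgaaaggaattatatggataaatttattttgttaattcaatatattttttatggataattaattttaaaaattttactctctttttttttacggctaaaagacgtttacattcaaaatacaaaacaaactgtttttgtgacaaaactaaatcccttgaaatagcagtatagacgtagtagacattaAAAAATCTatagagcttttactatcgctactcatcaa
CYP83A1 (chr4:7992430-7992679, reverse strand): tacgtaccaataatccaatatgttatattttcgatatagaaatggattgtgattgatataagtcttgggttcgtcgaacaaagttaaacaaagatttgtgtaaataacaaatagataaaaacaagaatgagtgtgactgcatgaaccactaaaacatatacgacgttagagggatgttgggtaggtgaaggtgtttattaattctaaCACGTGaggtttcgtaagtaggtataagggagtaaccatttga

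The motif CACGTG, the G-box bound by MYC2 and its relatives, was found on either strand of 1 of the 9 member promoters examined, 43 bases before CYP83A1, and in 6.49% of 27443 promoters of this length. Its variant CACATG was in 0 of 9 (11.1% of all promoters). The CCA1 binding site AAAAATCT was in 1 of 9, 37 bases before CYP79F1 (6.69% of all), and the evening element AAAATATCT in 0 of 9 (2.36%). GAGAC, the core of the sulfur-responsive element, was in 1 of 9, 84 bases before MYB29 on the reverse strand (25.8%). These are matches of letters in a short window and show no binding.

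In high light, 9 of the 10 genes were higher in ibm1-3 and none was lower by limma (adjusted p under 0.05), while 49.2% of all 17399 genes tested were called higher and 26% lower. The members' median log2 fold change was 0.48 against 0.25 for all genes. MAM3, which makes the long-chain precursors, stood apart, with levels 7.42 and 7.17 times those of WT in the 2 pairs, followed in limma log2 fold change by CYP79F1, CYP83A1 and MAM1. With size factors the median of all genes moved from 0.25 to -0.04, 35% of genes were called higher and 38.9% lower, and 4 members were called, MAM1, MAM3, CYP79F1 and CYP83A1. Without the replicate block, which compares genotypes within a deposited table, MAM3 and CYP79F1 remained called. In fits of 3 libraries, which have no block, 1 member was called whichever library was left out.

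Among the regulators, MYB28, the main activator of the branch, was at 30.2 and 41.76 FPKM in the WT high light libraries and at 35.51 and 49.68 FPKM in ibm1-3. Within each pair ibm1-3 was higher, while across pairs the genotypes overlapped. The log2 fold change was 0.24 ± 0.06 (SE, n = 2 per genotype, limma adjusted p = 0.0121), close to the median of all genes, and it turned to -0.083 with size factors. Without the WT or the ibm1-3 library of pair 1 it was 0.0086 and 0.47, and without those of pair 2 it was 0.46 and -0.00061. MYB29, which acts with MYB28, was at 3.56 and 4.39 FPKM in WT against 5.91 and 6.07 FPKM in ibm1-3, without overlap. Its log2 fold change was 0.50 ± 0.12 (adjusted p = 0.00781; 0.137 with size factors and with no block). MYB76, the third regulator and the lowest of the 10 genes in each library, was at 1.11 and 2.01 FPKM in WT against 0.93 and 1.83 FPKM in ibm1-3. The groups overlapped and the log2 fold change of -0.11 ± 0.15 did not pass (adjusted p = 0.523, 95% interval -0.46 to 0.24), on 20 and 15 fragments in pair 1.

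Chain elongation starts with BCAT4, which removes the amino group of methionine. BCAT4 was at 99.76 and 148.14 FPKM in WT against 121.65 and 210.67 FPKM in ibm1-3 in high light. The genotypes overlapped across pairs, and the log2 fold change was 0.39 ± 0.07 (n = 2 per genotype, adjusted p = 0.0015; 0.07 with size factors, adjusted p = 0.314). The estimate depended on single libraries, at 0.11 and 0.68 without the WT library of pair 1 and of pair 2, and at 0.79 and 0.00075 without the ibm1-3 library of pair 1 and of pair 2, none of them called. MAM1, which condenses the keto acid with acetyl-CoA and favours short chains, was at 210.23 and 186.14 FPKM in WT against 334.99 and 306.21 FPKM in ibm1-3. Both ibm1-3 libraries lay above both WT libraries, with a log2 fold change of 0.69 ± 0.06 (adjusted p = 2.47e-05; 0.0724 without the block). MAM3, its neighbour, was at 18.56 and 11.28 FPKM in WT against 137.78 and 80.89 FPKM in ibm1-3. The lowest ibm1-3 value was several times the highest WT value. Its log2 fold change was 2.78 ± 0.07 (adjusted p = 7.98e-08), 1.67% of all genes had a higher one, and it was called in all 10 alternatives run (adjusted p at most 0.0463).

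**Figure D1:**
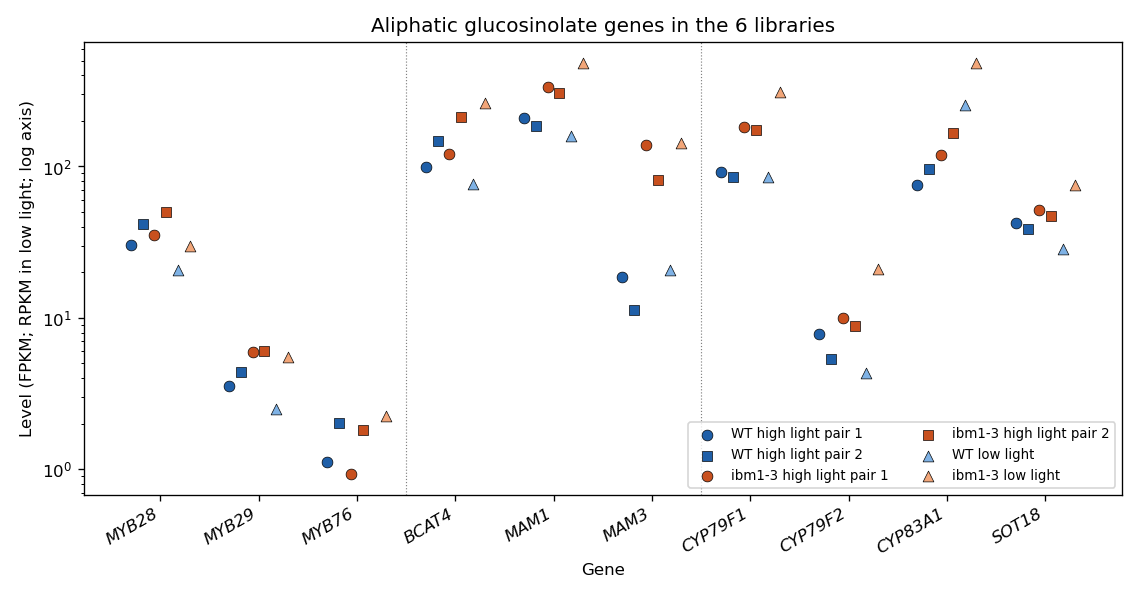
Levels of the 10 genes in the 6 libraries on a log axis, in FPKM for high light and the matching unit for reads, RPKM, for low light, which were normalized separately; circles and squares are high light pairs 1 and 2, triangles low light, blue WT and orange ibm1-3, and dotted lines part regulators, chain elongation and core structure. MAM3 goes from 18.56 and 11.28 FPKM in WT to 137.78 and 80.89 FPKM in ibm1-3 in high light; MYB76 is listed at 0 in WT low light and has no symbol there.

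Core synthesis begins with CYP79F1 and CYP79F2, which turn elongated methionine into oximes. CYP79F1, which accepts all chain lengths, was at 91.87 and 85.65 FPKM in WT against 183.52 and 173.09 FPKM in ibm1-3. Its level was 2.0 and 2.02 times that of WT in the 2 pairs, with a log2 fold change of 1.0 ± 0.06 (n = 2 per genotype, adjusted p = 3.49e-06). CYP79F2, which prefers long chains, was at 7.78 and 5.39 FPKM in WT against 9.95 and 8.78 FPKM in ibm1-3. The groups did not overlap, and the log2 fold change was 0.47 ± 0.12 (adjusted p = 0.00802; 0.178 with size factors). It was 0.24 without the WT library of pair 2 and 0.70 without that of pair 1.

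The next enzyme, CYP83A1, oxidises these oximes. CYP83A1 was at 75.1 and 96.62 FPKM in WT against 118.58 and 166.57 FPKM in ibm1-3, with no overlap and a log2 fold change of 0.72 ± 0.06 (n = 2 per genotype, adjusted p = 3.13e-05; 0.131 without the block). It was 0.47 without the ibm1-3 library of pair 2. SOT18, a sulfotransferase of the last core step, was at 42.5 and 38.7 FPKM in WT against 51.97 and 46.73 FPKM in ibm1-3. Its groups were separate but close, and the log2 fold change of 0.27 ± 0.06 (adjusted p = 0.00526) was near the median of all genes and turned to -0.045 with size factors. In all, 7 of the 10 members had both ibm1-3 libraries above both WT libraries, against 43.2% of all genes tested.

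In low light the single ibm1-3 library had more reads of each of the 10 genes than the WT library, and the enzyme genes had larger ratios than the regulators MYB28 and MYB29, CYP83A1 excepted. There is 1 library per genotype, so no test is possible and intervals cover counting error only. Of the 9 genes with at least 50 reads, 6 were at least 2-fold higher in ibm1-3, against 5.68% of 16509 genes, and none was 2-fold lower. The members' median log2 ratio was 1.33 against 0.01 for all genes. The authors' deposited table marks 7 of the 10 as changed in low light, MYB28, MYB29 and MYB76 being the others, against 7.24% of 20560 genes.

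MYB28 had 598 WT and 727 ibm1-3 reads, a log2 ratio of 0.26 (95% counting interval 0.10 to 0.41). MYB29 had 67 and 125 reads, a log2 ratio of 0.86 (0.43 to 1.32). MYB76 was listed at 0 in WT and had 38 reads in ibm1-3. With genes listed at 0 taken as having at most 14 reads, the observed ratio of MYB76 was at least 2.56-fold. This bound leaves out counting error, and MYB76 is below the minimum of 50 reads used for the other genes.

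Among chain elongation genes BCAT4 had 1721 WT and 5015 ibm1-3 reads, a log2 ratio of 1.52 (1.44 to 1.60). MAM1 had 4241 and 10869 reads, with 1.33 (1.28 to 1.38). MAM3 had 585 and 3439 reads, with 2.53 (2.40 to 2.66), and 0.624% of genes had a higher ratio. Of these 9 genes MAM3 had the highest ratio in low light as in each high light pair.

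For the core structure, CYP79F1 had 2761 WT and 8596 ibm1-3 reads, a log2 ratio of 1.61 (1.55 to 1.68). CYP79F2 had 135 and 552 reads, with 2.0 (1.73 to 2.29). CYP83A1 had 7539 and 12063 reads, with 0.65 (0.61 to 0.69). SOT18, at the last step, had 605 and 1364 reads, a log2 ratio of 1.15 (1.01 to 1.29). CYP83A1 was the only enzyme gene of the 7 below a 2-fold difference, and on the scale of total reads, which moved the median of all genes to 0.27, it was still below it (0.91).

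**Figure D2:**
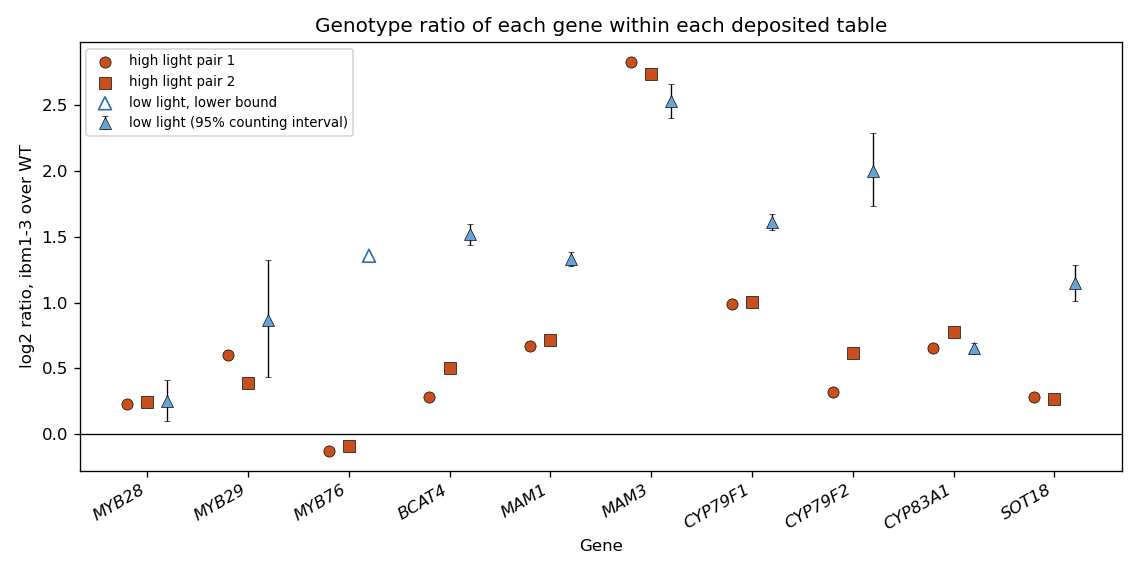
Log2 ratio of ibm1-3 over WT for each gene within each deposited table: circles and squares are high light pairs 1 and 2 on log2(FPKM + 1), filled triangles low light with 95% counting intervals, and the open triangle the lower bound of MYB76. MAM3 lies above 2.5 in all 3 pairs, while BCAT4 is at 0.28 and 0.51 in high light and 1.52 in low light.

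The size of the genotype effect was then compared between light conditions, with limma over all 6 libraries and the low light pair assumed to vary like the high light pairs. In this fit low light is scaled by total reads. For 5 of 9 genes the effect was lower in high light and for none higher, while 30.8% of 16208 genes had a lower effect in high light. BCAT4 differed by -1.37 ± 0.12 on the log2 scale (adjusted p = 2.31e-05), CYP79F2 by -1.57 ± 0.19 (0.000164), SOT18 by -1.1 ± 0.11 (5.23e-05), MAM1 by -0.90 ± 0.10 (0.000113) and CYP79F1 by -0.86 ± 0.10 (0.000129). MAM3 differed by 0.05 (95% interval -0.22 to 0.32, adjusted p = 0.736), CYP83A1 by -0.20 (-0.45 to 0.06), MYB28 by -0.26 (-0.53 to 0.01) and MYB29 by -0.40 (-0.88 to 0.09), none of which passed. MYB76, listed at 0 in WT low light, could not be fitted. None of the 9 passed (0 of 9) without the replicate block, where 1006 genes in all did, nor with any 1 of the 4 high light libraries left out. With size factors 7 of 9 passed, MYB28 and CYP83A1 added.

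A single genotype effect over the 3 pairs was called by limma for 0 of 9 members and 0% of 16208 genes. At an unadjusted p under 0.05 there were 5 members and 4300 genes. MAM3 had the smallest p of the members, with a log2 fold change of 2.77 ± 0.15 (n = 3 per genotype, limma adjusted p = 0.0929), and was called without the replicate block (adjusted p = 0.0492), with 56 genes in all. With a low light library left out, which leaves the high light pairs to set the effect, MAM3 and CYP79F1 were called, and with a high light library left out no member was.

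The members differed among themselves in how much RNA they contributed. Per length, MAM1 had the highest level in each high light library and CYP83A1 in both low light libraries, and MYB76 had the lowest in all 6. In WT and ibm1-3 low light CYP83A1 was at 256 and 482 RPKM and MAM1 at 159 and 479 RPKM, while CYP79F1 was at 85.1 and 312 RPKM. CYP83A1 and MAM1 were thus nearly level in the single ibm1-3 library. The order of BCAT4, CYP79F1 and CYP83A1 changed between the high light pairs, so these neighbours were not separated beyond the spread of libraries. MAM3 was 7th in both WT high light libraries and 3rd and 5th in the ibm1-3 libraries. The summed level of the 10 genes was 581 and 620 FPKM in WT high light and 1001 and 1051 FPKM in ibm1-3, and it was 653 and 1814 RPKM in low light.

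Within the MAM pair the balance shifted with genotype in each table. The level of MAM3 per level of MAM1 was 0.0883 and 0.0606 in WT high light and 0.411 and 0.264 in ibm1-3, and in low light it was 0.131 in WT and 0.300 in ibm1-3. Both genes were higher in ibm1-3, MAM3 by more, and the 3 ibm1-3 ratios all lay above the 3 WT ratios. The CYP79F pair showed no such common direction. CYP79F2 per CYP79F1 was 0.0847 and 0.0629 in WT high light against 0.0542 and 0.0507 in ibm1-3, but 0.0510 in WT low light against 0.0669 in ibm1-3. These ratios were read after the levels were seen and carry no test.

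**Figure D3:**
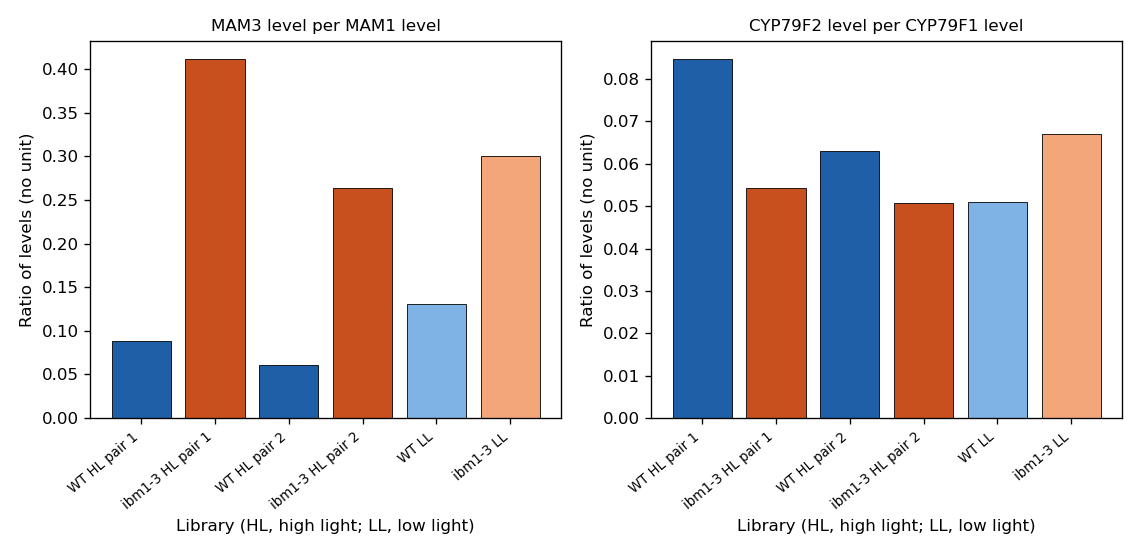
Ratio of levels within the neighbouring gene pairs, by library: MAM3 per MAM1 on the left and CYP79F2 per CYP79F1 on the right, with bars for the single libraries, blue WT and orange ibm1-3, darker for high light. MAM3 per MAM1 is 0.131 or less in WT and 0.264 or more in ibm1-3.

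Among other genes of aliphatic synthesis more were higher than lower in ibm1-3 in both light conditions. In high light 16 of 19 measured pathway genes rose, 2 fell and 1 did not pass, with a median log2 fold change of 0.60 (10 rose and 2 fell with size factors, 6 rose and 1 fell with no block). Of all genes 49.2% were called higher and 26% lower, with a median of 0.25; the shares were 35% and 38.9% with size factors and 18.2% and 8.4% with no block. BCAT3, the aminotransferase that closes chain elongation, rose by 1.68 ± 0.07. FMOGS-OX3, which oxygenates the side chain sulfur, rose by 1.54 ± 0.08, and GSTU20, a glutathione transferase of core synthesis, by 1.47 ± 0.06. GSL-OH, which hydroxylates the side chain, fell by 1.74 ± 0.06. It stood at 743.7 and 780.6 FPKM in WT against 228.84 and 225.4 FPKM in ibm1-3, but at a log2 ratio of 0.61 in low light. In low light 9 of 20 pathway genes were at least 2-fold higher and none 2-fold lower, against 5.68% and 9.74% of all genes. The median log2 ratio was 0.98 against 0.01 for all genes. Of the 20 genes 15 lay above 0, and those below included the core genes UGT74B1 (-0.97), GGP1 (-0.75) and SUR1 (-0.27). AOP2, a side chain gene with values only in the low light table and chosen after they were seen, had 158 WT and 730 ibm1-3 reads.

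The indolic branch, which starts from tryptophan, went the other way in low light. Of its 11 measured genes 10 were at least 2-fold lower in ibm1-3 in low light, against 9.74% of all genes, with a median log2 ratio of -1.79. In high light 9 rose and 2 fell, against 49.2% and 26% of all genes, with a median of 1.28 against 0.25. With size factors the counts were the same, against 35% and 38.9% of all genes. With no block 7 rose and 0 fell, against 18.2% and 8.4%. MYB51, its main regulator, was at 18.79 and 22.84 FPKM in WT against 92.38 and 111.65 FPKM in ibm1-3 in high light, a log2 fold change of 2.24 ± 0.06. In low light MYB51 had 1902 WT and 373 ibm1-3 reads, a log2 ratio of -2.37. GSTF9 rose by 2.06 ± 0.08, the sulfotransferase SOT16 by 1.95 ± 0.06 and CYP79B2, which makes the tryptophan-derived oxime, by 1.94 ± 0.10 in high light. Their low light log2 ratios were -0.16, -1.46 and -1.20, and that of GSTF9 was 0.11 on the scale of total reads. The genotype effect was higher in high light for all 11 indolic genes by limma, against 29.6% of all genes, where it was lower for 5 of 9 aliphatic members. With no block 7 indolic genes and 0 members were called (4.05% of all genes higher), and with a high light library left out 3 to 8 indolic genes and 0 members.

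**Figure D4:**
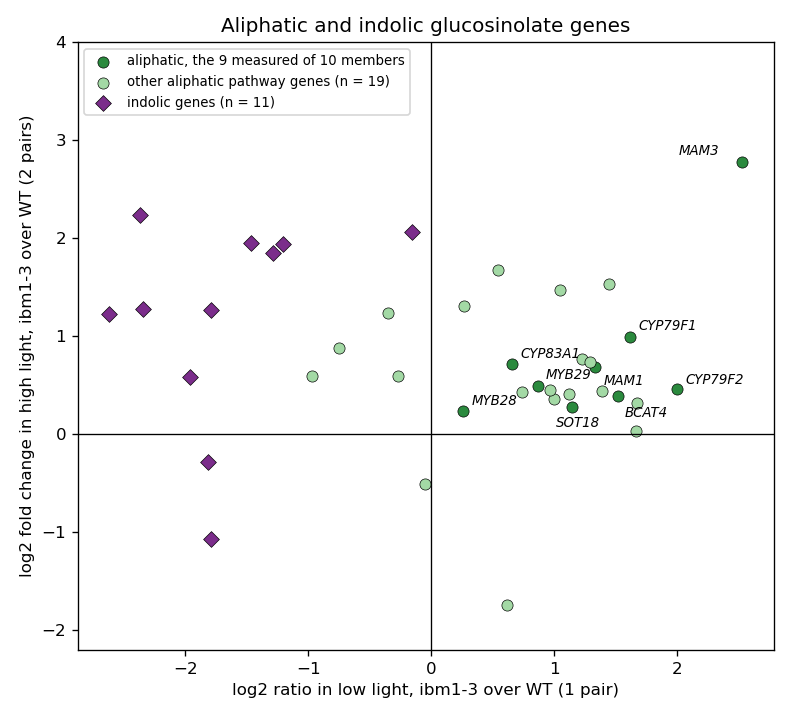
Log2 fold change in high light against log2 ratio in low light, ibm1-3 over WT, for 9 aliphatic members (dark green), 19 other aliphatic genes (light green) and 11 indolic genes (purple); MYB76 has no low light ratio. The 9 members lie to the upper right, and 9 of the 11 indolic genes to the upper left.

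The list of 13 sulfate genes covered supply of activated sulfate, the donor for SOT18, and also sulfate uptake, transport and reduction and glutathione. Its counts and medians are therefore not those of the donor supply alone. In high light 8 rose, 1 fell and 4 did not pass, with a median of 0.58 (7 rose and 4 fell with size factors, 2 rose with no block). This count is near the 49.2% of all genes called higher. APS3, an ATP sulfurylase, rose by 1.69 ± 0.07. APK2 and APK1, kinases that make the sulfate donor, rose by 1.14 ± 0.06 and 0.91 ± 0.06, neither of them without the block, and SAL1, which removes its by-product, rose by 1.16 ± 0.07. In low light the median was -0.07 and APS3 had a log2 ratio of -1.11. SULTR1;2, a sulfate uptake transporter named after its values were seen, had 67 WT and 487 ibm1-3 reads in low light, a log2 ratio of 2.82, while its high light log2 fold change was 0.03 ± 0.13 (adjusted p = 0.845) and turned to -0.24 with size factors.

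Transport and breakdown genes were mixed, with 5 of 9 higher and 4 lower in high light, against 49.2% and 26% of all genes (4 higher and 2 lower with no block, 5 and 2 with no variance trend). GTR1, a glucosinolate importer, rose by 3.12 ± 0.07, from 27.98 and 32.61 FPKM to 233.04 and 314.08 FPKM, while in low light its log2 ratio was -1.04. ESP, a specifier protein that steers breakdown products, rose by 1.62 ± 0.10, and the nitrile specifier NSP5 fell by 1.39 ± 0.07. The beta-glucosidase BGLU30 fell by 2.99 ± 0.13 on log2(FPKM + 1), with levels 0.056 and 0.039 times those of WT. In low light ESP was at -1.34 and NSP5 at 1.58. The myrosinase gene TGG2, named after its values were seen, had 1236 WT and 33 ibm1-3 reads in low light, a log2 ratio of -5.21. TGG1, the other myrosinase gene listed, had 809 WT and 594 ibm1-3 reads there, a log2 ratio of -0.47. The high light log2 fold change of TGG1 was -0.19 ± 0.06. In high light TGG2 was at 43.35 and 60.4 FPKM in WT against 38.03 and 52.39 FPKM in ibm1-3, overlapping, and fell by 0.19 ± 0.06 (adjusted p = 0.0239, not called without the block).

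Of 8 upstream regulators 5 rose, 1 fell and 2 did not pass in high light (3 rose and 4 fell with size factors, 1 rose and 1 fell with no block). The count is near the 49.2% of all genes called higher, and the median log2 fold change of 0.32 is near the 0.25 of all genes. MYC2, a jasmonate-responsive partner of the MYB factors, rose by 1.34 ± 0.06 and had a log2 ratio of -0.69 in low light. IQD1, a calmodulin-binding activator of glucosinolate genes, rose by 1.1 ± 0.18 and OBP2, a DOF factor, by 0.59 ± 0.09, neither of them without the block. SDI1, which represses the branch through MYB28, fell by 1.94 ± 0.15 on log2(FPKM + 1), a scale that understates changes of low genes. Its levels went from 7.05 and 5.33 FPKM to 0.86 and 0.87 FPKM, 0.12 and 0.16 times those of WT. In low light SDI1 had 47 WT and 381 ibm1-3 reads, a log2 ratio of 2.97.

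The genes closest to the members' median in their 3 genotype ratios (0.60, 0.61 and 1.33 on the log2 scale) were sought among 12674 genes outside the glucosinolate lists. The nearest 5 were PUT4, AT5G51770, TGA7, AT1G09900 and PDE312, at Euclidean distances of 0.0892 to 0.180 over the 3 pairs.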

How the data were processed

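Genotypes were taken from sample titles, as was high light. The titles of the low light libraries name no light condition, and their descriptions name the comparison without high light. Per the submitters' processing notes, the tools and builds include Bowtie2 and TAIR10. How fragments were counted, whether by strand, and tool versions is information not given in the sources used here. Per the labels' protocols, libraries followed Illumina and BGI protocols, with no link to samples. The authors deposited estimated counts of fragments and FPKM for high light pair 1, per the file headers, and for pair 2 a column whose deposited values behave as FPKM. No replicate number stands in the column names of pair 1, and the labels disagree on it. For low light the authors deposited 1 signal per gene and library that behaves as reads times a constant (100% of nonzero values lay within 0.01 of a whole multiple). The lowest nonzero value was taken as 15 reads, and the 5419 and 5497 genes listed at 0 were taken as having fewer. The authors' deposited log2 ratios and q-values of that table set 1 library against 1 and serve here only to count the genes it marks. In pair 2, 1003 identifiers with a transcript suffix were left out. Gene length is the other deposited value used.

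High light was tested with limma 3.58.1 (trend, R 4.3.3) on log2(FPKM + 1), which understates changes of low genes, for genes of at least 1 FPKM in 2 libraries, with the table as replicate block and Benjamini-Hochberg adjustment over all genes. The fit has 1 residual and 6.05 prior degrees of freedom. Deviations of same-numbered libraries from their group means correlated at 0.89 across genes. Low light reads were scaled with TMM (edgeR 4.0.16), a prior count of 1 and a minimum of 50 reads; intervals are exact 95% binomial (Clopper-Pearson). Genes listed at 0 in low light were left out of fits over 6 libraries. The planned edgeR count test was not run, since low light reads were inferred from a scaled signal and could not be taken as recovered counts. The counting intervals and the bound of MYB76 rest on that inference. DESeq2 1.42.0 gave size factors as an alternative. The fits were tested on simulated data.

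Deposited and RefSeq gene ends were the same for 14074 of 22259 genes and 6 of 10 members. Coding sequences were aligned with Biopython 1.88. The upstream sequence of 1 member is not reported here. The members and lists were chosen with earlier results of these data known. All members are named. Of each other list the 4 genes with the largest absolute high light fold change are named. The 4 clock genes and the 5 genes nearest to the members are named too. AOP2, SULTR1;2, TGG2 and TGG1 were added after their values were seen. Counts of other named genes below leave out TGG1.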

Additional observations from a re-analysis of the deposited data

Results flagged for a closer look

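For the genes below the genotype effect differed between light conditions by the limma test of the difference itself (high light minus low light, log2 scale, adjusted p under 0.05). Passing this test was common, with 9792 of 16208 genes called, 30.8% with a lower and 29.6% with a higher effect in high light. Without the replicate block 2.16% of all genes were called with a lower and 4.05% with a higher effect. Low light has a single pair, assumed to vary like the high light pairs, and is scaled by total reads in this fit. Among the members the difference was -1.37 for BCAT4, -0.90 for MAM1, -0.86 for CYP79F1, -1.57 for CYP79F2 and -1.1 for SOT18. In the rest of the aliphatic pathway it was -2.61 for GSL-OH and 0.89 for BCAT3. In sulfate supply it was 2.52 for APS3, 1.14 for SAL1, 1.11 for APK2, 0.51 for APK1 and -2.45 for SULTR1;2. Among transport and breakdown genes GTR1 differed by 3.89, ESP by 2.66, NSP5 by -3.21 and TGG2 by 4.02. The regulator SDI1 differed by -4.77 and MYC2 by 1.76. Indolic genes differed by 4.29 for MYB51, 1.96 for GSTF9, 3.14 for SOT16 and 2.86 for CYP79B2. Clock genes differed by -4.93 for CCA1, -4.41 for LHY, 2.72 for TOC1 and 1.29 for GI. Without the replicate block 0 of the 5 members and 11 of the 21 other genes passed, and with a high light library left out 0 of the 5 and 6 to 14 of the 21.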

How the results depend on the processing

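In high light the count of members higher in ibm1-3 was 4 with size factors, 2 with no replicate block and 1 with any of the 4 libraries left out (range 1 to 1), against 9. It was 9 with a pseudocount of 0.1, no filter and a minimum of 5 FPKM, and 8 with no variance trend, MYB28 missing the threshold (adjusted p = 0.0511). Over all genes 4624 were called with no replicate block and 1240 to 3391 with a library left out, against 13075. The members lower in the difference between light conditions numbered 0 with no replicate block and with any high light library left out (range 0 to 0), against 5. The members called over 3 pairs numbered 1 with no replicate block and 0 to 2 with a library left out, against 0; these leave-outs for both comparisons were chosen after seeing the data. With a high light library left out, the difference ranged from -0.33 to 0.43 for MAM3 and -0.44 to 0.048 for CYP83A1, neither called in the fit of all libraries. Directions turned with size factors for MYB28 (-0.083), SOT18 (-0.045), SULTR1;2 (-0.24) and IBM1 (-0.20). With a library left out the log2 fold change ranged from -0.00061 to 0.47 for MYB28, -0.38 to 0.17 for MYB76, -0.41 to 0.47 for SULTR1;2, -0.43 to 0.042 for TGG2, 0.63 to 1.64 for APK2, 0.69 to 1.51 for IQD1, 0.024 to 1.15 for OBP2 and -0.48 to 0.66 for IBM1. In low light, total-read scaling turned SAL1 (0.021), APK2 (0.026), GSTF9 (0.11) and CCA1 (0.23). The cause was not tested. Of the 25 other named genes called in high light 20 were called with no replicate block, and 7 to 17 with a library left out. Fits with a library left out have no block and take in differences between separately normalized tables. The edgeR count test was not run. Depth limits MYB76, at 20 fragments or fewer in pair 1 and 38 reads in low light.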
